A study of Anolis carolinensis with 15 samples.

Results

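Green anole fibroblasts collected at 21 days after tail amputation (D21) under zoledronic acid (ZA) were compared with fibroblasts collected at 14 days (D14) from lizards with no treatment recorded. The comparison took in 3 ZA D21 libraries and 3 D14 libraries, 6 of the 15 libraries of the series, and every gene that reached 10 counts in 3 or more of those 6. That filter kept 20783 of 26523 genes. The question was whether cells from treated tails still resembled cells of the D14 blastema a week later.

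Zoledronic acid is a bisphosphonate. Drugs of this class bind bone mineral, are taken up by bone-resorbing osteoclasts and block farnesyl diphosphate synthase, an enzyme of the mevalonate pathway, which disables the osteoclast. In a lizard tail, osteoclast activity at the broken vertebra precedes the blastema, a mound of proliferating connective tissue cells under a wound epidermis, and part of the blastema later forms a cartilage tube in place of the lost vertebrae.

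All cells came from whole regenerating tails of *Anolis carolinensis*. Cells were fixed and sorted for a fluorescent probe against *col3a1*, a fibrillar collagen of fibroblasts, and RNA was sequenced in bulk after ribosomal RNA removal. At D21 the sort left out cells labelled for *krt5*, a keratin of the epidermis. For the time course the study's text names cells without the *krt5* label and, in another place, cells with it. The sort of D14 may therefore differ from that of ZA D21. ZA lizards were injected into the abdominal cavity from a week before amputation until collection. The D14 lizards belong to the time course of the series (D7, D14 and D28), for which the treatment entry is N/A. A further 3 libraries came from the injection experiment at D21 with phosphate-buffered saline (PBS), and they are given beside the main values. The record states the ZA concentration as a volume in a volume, so no dose is given here. Per the study's methods the lizards were 9–12 months of age and of both sexes, and neither is given per library.

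The treatment, the added week and the experiment all differ between ZA D21 and D14, and their effects cannot be told apart. The injections differ as well if the N/A entry of D14 means that none were given. The study's text also says that a D14 sample of the time course was sequenced earlier than the rest, without saying which, so it could not be a term in the fit. For the injection experiment the study mentions similar batch effects among replicates, without naming libraries. The titles put ZA replicate A (ZA A) in the ZA group, whereas its treatment entry reads PBS, and the entry of PBS A reads N/A; titles were followed. ZA A also stood apart from the other libraries. It held 4237978 counts, against 12444012 and 9966409 in ZA B and ZA C and 11043456 to 12699682 in D14. Ribosomal RNA genes took 0.648% of its counts, against 0.0289% and 0.0244% in ZA B and ZA C and 0.0272% to 0.0496% in D14. They were also high in PBS A (0.331%, against 0.0414% and 0.0389% in PBS B and PBS C) and in D28 A (0.254%). Results that rest on ZA A are therefore given with and without it. The study's text calls the D21 samples biological replicates and says that the time course experiments were repeated. Nothing in the labels says whether each library came from a separate lizard, so p-values measure only the spread between these samples. In bulk RNA, fewer cells of a type and less RNA per cell cannot be told apart.

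The sorted marker was present throughout. *col3a1* had 55740, 21130 and 31120 normalized counts in ZA D21 (counts scaled to a common effective library size), against 17050, 17080 and 17040 in D14. Every ZA library was above every D14 library, but the difference was not called (log2 fold change 1.15, SE 0.41; edgeR adjusted p = 0.34). *krt5* is not listed in the files. The 35 other epidermal genes tested summed to 94220, 152200 and 115000 normalized counts in ZA D21 and 107600, 98970 and 73820 in D14, so epidermal transcripts were present in all 6 libraries. Of these genes 31 had a log2 fold change above 0, with a median of 0.26, and none was called. Under total-count scaling the median was 0.04, beside -0.23 for all genes. Without ZA A, 33 were above 0, with a median of 0.46. In PBS D21 minus D14 the median was -0.28, with 10 above 0 and 25 below.

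Few genes were called with edgeR, the main test here, and the number depended on the test. DESeq2, which the study used, called 90 higher and 202 lower in the same libraries. At an adjusted p under 0.05 with an absolute log2 fold change over 2, edgeR's quasi-likelihood test called 5 genes higher in ZA D21 (0.0241% of genes tested) and 32 lower (0.154%), together 37 (0.178%). At an unadjusted p under 0.05 there were 1118 higher (5.38%) and 1337 lower (6.43%), together 2455 (11.8%). Taking all genes, the log2 fold change had a median of 0.01. The ZA libraries lay above all D14 libraries at 1385 genes (6.66%) and below them at 2835 genes (13.6%), together 4220 genes without overlap (20.3%). In a fit of the 9 ZA, PBS and D14 libraries, 24 genes were called higher (0.113%) and 18 lower (0.0848%) in PBS D21 than in D14, and 2 were called higher (0.00942%) and 14 lower (0.0659%) in ZA D21 than in PBS D21.

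**Figure D1:**
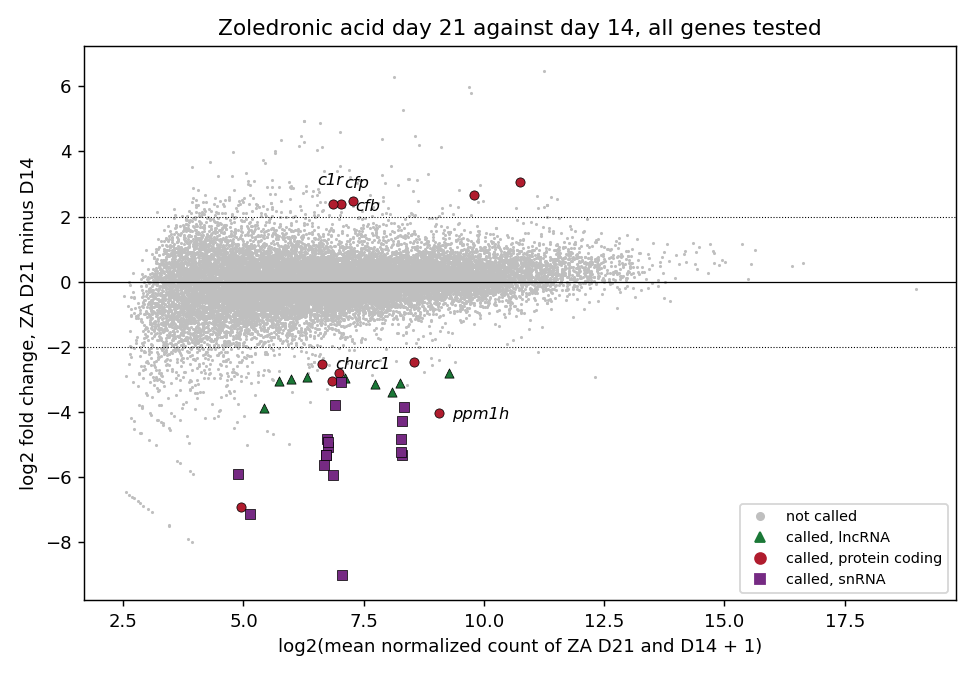
Log2 fold change of ZA D21 minus D14 for each of the 20783 genes tested, plotted against the log2 of its mean normalized count in the 2 groups plus 1. Coloured symbols mark the 37 genes called, dotted lines mark the fold change required for a call, and the annotated genes called are named; the 5 called higher are all protein coding, and most of the 32 called lower are small nuclear RNA (snRNA) or long noncoding RNA (lncRNA) genes.

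The calls were sensitive to single libraries. Without ZA A, 61 genes were called higher (0.297%) and 581 lower (2.83%) of 20533 tested, and all 37 of the calls above were among them. Without D14 A the counts were 0 higher and 4 lower, and without D14 B 0 higher and 3 lower. Without D14 C, edgeR called 0 genes in either direction, with 992 genes at an unadjusted p under 0.05. Leaving out ZA B gave 1 higher and 7 lower, and leaving out ZA C gave 2 higher and 15 lower. Each such fit has 5 libraries.

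D14 was the extreme group of the whole series at most called genes. All 32 genes called lower had their highest group mean in D14, above ZA D21, PBS D21, D7 and D28, against 18.3% of all genes tested. Of the 5 called higher, 4 had their lowest group mean in D14, against 9.88% of all genes. Of the 581 genes called lower without ZA A, 447 had their highest mean in D14. D7 and D28 belong to the same time course as D14, so at these genes D14 lay apart from its own time course as well as from both injected groups. Since a call needs a difference from D14, these shares are a description and not a test.

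The annotated genes called higher in ZA D21 than in D14 were complement genes. Complement is a cascade of plasma proteins that tags and lyses cells and draws in leukocytes. *cfb* encodes factor B, the protease of the alternative pathway (chromosome 2). It had 183, 217 and 245 normalized counts in ZA D21, against 45.2, 49.8 and 32.6 in D14, and 113, 119 and 28.5 in PBS D21. The ZA libraries did not overlap the D14 libraries, while PBS C was below all of them (ZA minus D14 log2 fold change 2.38, SE 0.31, 95% confidence interval 1.68 to 3.08; edgeR adjusted p = 0.031).

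*cfp* encodes properdin, which stabilises the convertase that contains factor B. It had 145, 171 and 264 normalized counts in ZA D21, against 43.8, 33.9 and 37.3 in D14, and rose with a log2 fold change of 2.38 (SE 0.34; edgeR adjusted p = 0.042). *c1r*, a protease of the first component of the classical pathway, had 263, 166 and 352 normalized counts in ZA D21 and 55.4, 43.3 and 46.6 in D14 (log2 fold change 2.48, SE 0.36; edgeR adjusted p = 0.044). All 3 genes lie on chromosome 2, and in each the lowest ZA library was above the highest D14 library. Their PBS libraries ran from 28.5 for *cfb* to 160.5 for *cfp*, with ZA minus PBS log2 fold changes of 1.22 for *cfb*, 0.72 for *cfp* and 1.32 for *c1r*, none of which passed (lowest edgeR adjusted p = 0.38). The D7, D14 and D28 means of the time course were 127, 42.5 and 175 for *cfb*, 154, 48.4 and 286 for *c1r*, and 22.7, 38.3 and 47.2 for *cfp*. At *cfb* and *c1r* D14 was thus the lowest stage, and the mean of *c1r* at D28 was above that of ZA D21, whereas *cfp* was higher in ZA D21 (mean 193) than at every stage.

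Across the leave-one-out fits the log2 fold changes of these genes stayed between 2.10 for *cfp* and 2.74 for *c1r*. Each of *cfb*, *cfp* and *c1r* kept its call in 1 of those 6 fits, the one without ZA A, and the largest edgeR adjusted p values were 0.30 for *cfb*, 0.40 for *cfp* and 0.40 for *c1r*.

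The other genes called higher carry only a locus name, and no role is given for them. LOC100554736 on chromosome 2 had 2182, 2714 and 4367 normalized counts in ZA D21, 1306, 3105 and 487 in PBS D21, and 382, 297 and 452 in D14 (ZA minus D14 log2 fold change 3.07, edgeR adjusted p = 0.015). LOC100566002 had 1503, 1152 and 1901 in ZA D21, 1125, 723 and 451 in PBS D21, and 266, 183 and 287 in D14 (log2 fold change 2.68, edgeR adjusted p = 0.020). The D7, D14 and D28 means were 799, 245 and 395 for LOC100566002 and 2437, 377 and 696 for LOC100554736, so that D14 was the lowest group mean at both. LOC100554736 kept its call in 2 of 6 leave-one-out fits and LOC100566002 in 1 of 6, with adjusted p up to 0.19 and 0.22.

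Of 19 complement genes tested, 13 had a log2 fold change above 0. On the higher side 10 had an unadjusted p under 0.05 (5.38% over all genes) and 3 were called (0.0241% over all genes). None on the lower side had an unadjusted p under 0.05. The median was 1.24, against 0.01 over all genes. The list was put together after values had been seen, so it describes these genes and is not a test. Beyond the 3 called genes, *c3*, the protein on which all complement pathways converge, had 50.7, 65.7 and 117.5 normalized counts in ZA D21 and 19.7, 16.6 and 12.4 in D14 (log2 fold change 2.30, edgeR adjusted p = 0.14). *cfh*, which restrains the alternative pathway, had 142, 316 and 416 in ZA D21 and 75.8, 92.4 and 62.9 in D14 (log2 fold change 1.96, edgeR adjusted p = 0.13). Without ZA A, *c3* was called higher (log2 fold change 2.50, edgeR adjusted p = 0.012), as was *cfh* (2.26, edgeR adjusted p = 0.0038). *c5ar1*, a receptor for a complement fragment, was called lower there (log2 fold change -3.42).

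Genes of the interferon response were higher as well without reaching a call. Interferons are secreted after infection or damage and induce antiviral genes. *isg15*, a ubiquitin-like protein attached to target proteins in that response, had 487, 158 and 568 normalized counts in ZA D21, against 75.8, 65.7 and 68.4 in D14 and 416, 333 and 192 in PBS D21. Both injected groups lay above D14 at this gene (ZA minus D14 log2 fold change 2.59, SE 0.48, 95% confidence interval 1.51 to 3.67; edgeR adjusted p = 0.10). *irf1*, an interferon-induced transcription factor, had 215, 249 and 528 in ZA D21 and 88.2, 126 and 110 in D14. Neither *isg15* nor *irf1* showed an overlap between ZA D21 and D14 libraries.

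Over 22 interferon genes tested, 17 had an unadjusted p under 0.05 on the higher side and none on the lower, and 16 had every ZA library above every D14 library (6.66% over all genes). The median was 1.46 in ZA minus D14 and 1.15 in PBS minus D14, which share the D14 libraries. None was called with all libraries, and 5 were called higher without ZA A (0.297% over all genes). These were *isg15*, *uba7* (the enzyme that activates the ISG15 protein), *usp18* (which removes it), *ddx60* (an RNA helicase) and *dtx3l* (a ubiquitin ligase). All 7 antigen presentation genes tested had a log2 fold change above 0, with a median of 2.09 in ZA minus D14 and 1.94 in PBS minus D14. Among them *tap2*, which pumps peptides toward MHC class I molecules, had 57.9, 116 and 261 normalized counts in ZA D21 and 21.9, 27.4 and 22.5 in D14 (log2 fold change 2.64, edgeR adjusted p = 0.13). These lists too were put together after values had been seen.

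**Figure D2:**
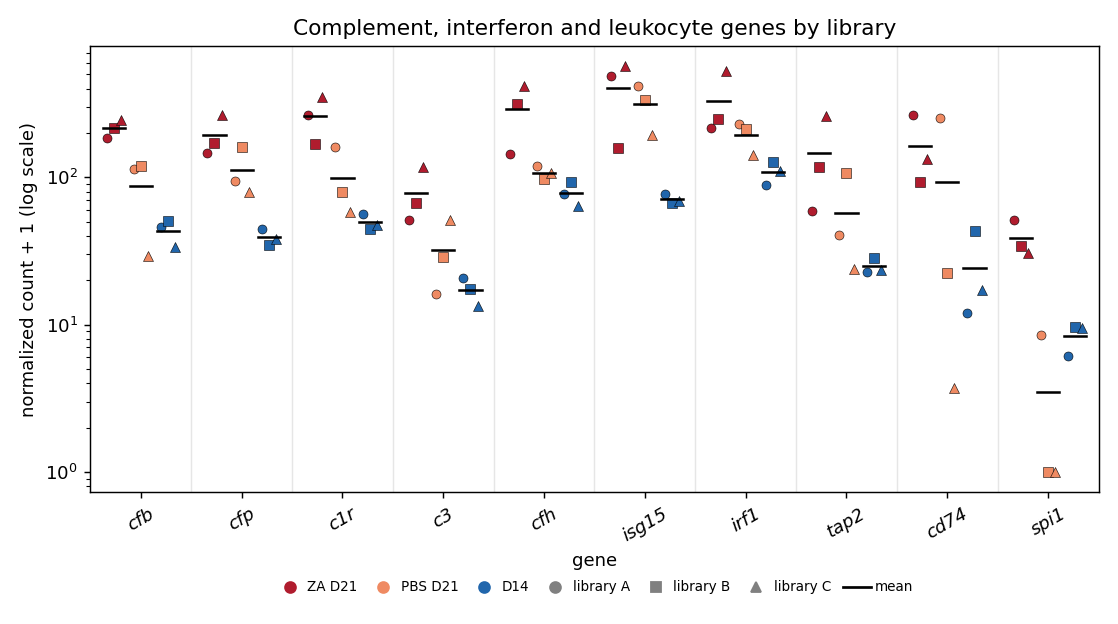
Normalized counts plus 1 (log scale) of 10 complement, interferon and leukocyte genes in each library, with ZA D21 on the left of each gene, PBS D21 in the middle and D14 on the right; symbols mark replicates A, B and C and black bars the group means. At *cfb* the 3 ZA libraries sit at 183 to 245 and the D14 libraries at 32.6 to 49.8, while at *cd74* and *spi1* the PBS libraries spread far more widely than those of D14.

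The inflammation list held 38 tested genes, of which 31 had a log2 fold change above 0, 14 had an unadjusted p under 0.05 on the higher side and none on the lower side. Its median was 0.77 with ZA A and 0.49 without, and no member was called with all libraries. *icam1*, an adhesion protein for leukocytes, had 314, 227 and 357 normalized counts in ZA D21 and 105, 139 and 102 in D14. *c3* is also a member and is described above.

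Most leukocyte markers were higher in ZA D21 too. The leukocyte list shares members with lists above, among them *cd74* with antigen presentation and *ifi30* with the interferon genes. The lists are therefore not independent of each other. The 21 macrophage and leukocyte genes listed in the files, of which 18 were tested, summed to 3856, 1750 and 1766 normalized counts in ZA D21. Their sums were 2777, 1357 and 725 in PBS D21 and 1417, 1049 and 1093 in D14. The sum was thus highest in ZA A, and ZA D21 did not overlap D14. Of the 18 genes tested, 14 had a log2 fold change above 0 and 4 below. An unadjusted p under 0.05 was found for 8 on the higher side and 1 on the lower side. The median was 0.91 with ZA A and 0.77 without. None was called with all libraries, and *cd74* and *spi1* were called higher without ZA A. *spi1*, the transcription factor that defines myeloid cells, had 50.7, 33.3 and 29.8 normalized counts in ZA D21, 7.53, 0 and 0 in PBS D21, and 5.10, 8.66 and 8.55 in D14. *cd74*, the invariant chain of MHC class II, had 266, 92.1 and 131 in ZA D21, 253, 21.4 and 2.71 in PBS D21, and 10.9, 42.6 and 16.3 in D14. *c1qb*, made chiefly by macrophages, had 1016, 156 and 91.4 in ZA D21 and 49.6, 28.9 and 58.3 in D14, so that ZA A was by far the highest. *ifi30*, the immune cell marker of the study, was on the other side with overlapping groups. It had 263, 240 and 274 in ZA D21 and 574, 222 and 228.5 in D14 (log2 fold change -0.35). The part of leukocyte RNA in the complement and interferon differences was not tested.

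Osteoclasts are the cells that ZA acts on, though the *col3a1* sort did not aim at them. Of 10 osteoclast genes tested, 7 had a log2 fold change above 0, with a median of 0.53 and none called. *acp5*, the acid phosphatase used to stain osteoclasts, had 96.5, 15.4 and 14.0 normalized counts in ZA D21, 0, 0 and 0 in PBS D21, and 8.75, 9.38 and 13.2 in D14, so that all ZA libraries were above D14, ZA A by far the most. *mmp9*, a gelatinase of osteoclasts and other cells, had 746, 821 and 826 in ZA D21, 122, 129 and 319 in PBS D21, and 557, 769 and 772 in D14. ZA D21 and D14 overlapped at *mmp9*, with a log2 fold change of 0.23. *ctsk*, the main osteoclast protease, is not listed in the files.

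The mevalonate pathway, which ZA enters through farnesyl diphosphate synthase, showed small differences. The gene of that enzyme, *fdps*, had 205, 313 and 415 normalized counts in ZA D21 and 242, 266 and 231 in D14, and the groups overlapped (log2 fold change 0.38, 95% confidence interval -0.29 to 1.05). Of 37 pathway genes, 30 had a log2 fold change above 0 in ZA minus D14, with a median of 0.38, 4 with an unadjusted p under 0.05 on the higher side and 2 on the lower side. Under total-count scaling the median was 0.13, with 22 above 0 and all genes at -0.23, and it was 0.34 in PBS minus D14.

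Cartilage matrix genes did not share a direction in ZA D21, with 13 of 22 tested above their D14 level and 9 below. Without ZA A, 7 were above it and 15 below. In PBS D21, 19 of the 22 were above their D14 level. *col2a1*, the main collagen of cartilage, had 2546, 292 and 392 normalized counts in ZA D21, 134300, 15300 and 80450 in PBS D21, and 834, 1770 and 1082 in D14. ZA D21 and D14 overlapped because of ZA A (log2 fold change -0.09, SE 0.76, 95% confidence interval -1.82 to 1.64). Without ZA A the difference was -1.84 (edgeR adjusted p = 0.019), which passed the adjusted p but not the fold change of a call. In the 9-library fit, PBS minus D14 was 6.10 (edgeR adjusted p = 0.038) and ZA minus PBS was -6.20 (edgeR adjusted p = 0.071).

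*acan*, the large proteoglycan of cartilage, had 234, 88.7 and 75.5 normalized counts in ZA D21, 5124, 1498 and 5289 in PBS D21, and 222, 261 and 229 in D14. ZA B and ZA C were below every D14 library and ZA A was within their range (log2 fold change -0.80 with ZA A and -1.53 without, edgeR adjusted p = 0.52 and 0.013). *col9a2*, a chain of the collagen on the surface of cartilage fibrils, had 516, 125 and 179 in ZA D21, 12650, 2815 and 8434 in PBS D21, and 420.0, 485 and 657 in D14. Again ZA B and ZA C were below every D14 library and ZA A was within their range, with log2 fold changes of -0.87 with ZA A and -1.77 without (edgeR adjusted p = 0.55 and 0.014).

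*col11a1* and *col11a2*, chains of the collagen at the core of cartilage fibrils, lay on the other side of D14 in part. *col11a1* had 7667, 4769 and 5124 normalized counts in ZA D21, 44820, 12480 and 39850 in PBS D21, and 3393, 3259 and 4316 in D14, with no overlap of ZA D21 and D14 (log2 fold change 0.74). *col11a2* had 3975, 571 and 504 in ZA D21 and 910, 837 and 807 in D14, so that ZA A was above D14 and ZA B and ZA C below. *matn4*, a matrilin that bridges matrix filaments, had 12.1, 21.3 and 39.2 in ZA D21, 202, 321 and 499 in PBS D21, and 59.8, 73.6 and 55.2 in D14, and the 3 groups did not overlap.

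Over the 22 cartilage matrix genes tested, the median ZA minus D14 log2 fold change was 0.09 with ZA A and -0.32 without, and -0.13 when libraries were scaled by total counts, where the median of all genes was -0.23. No member was called; 1 had an unadjusted p under 0.05 on the higher side and 3 on the lower side. The median of PBS minus D14 over these genes was 2.08. Of the 22, 7 were called in PBS minus D14 and 5 in ZA minus PBS, against 42 and 16 of all 20783 genes. The 19 chondrogenic and sclerotome factors, the transcription factors that set up cartilage, had a median of -0.24, with 14 below 0 and 5 with every ZA library under every D14 library (13.6% over all genes). Among them *sox5*, a partner of *sox9* in cartilage cells, had 237, 276 and 235 normalized counts in ZA D21, 2080, 1361 and 2220 in PBS D21, and 405, 468 and 635 in D14 (ZA minus D14 log2 fold change -0.97, edgeR adjusted p = 0.24). *sox9* itself overlapped between ZA D21 (736, 1609 and 1292) and D14 (1892, 1399 and 1747).

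**Figure D3:**
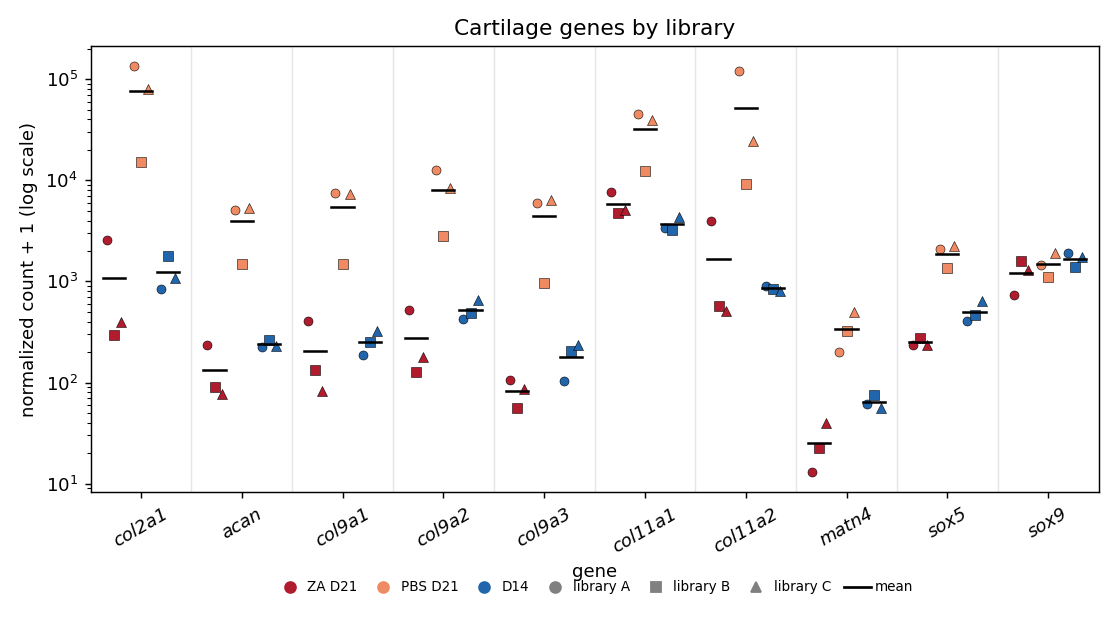
Normalized counts plus 1 (log scale) of 10 cartilage genes in each library, with ZA D21 on the left of each gene, PBS D21 in the middle and D14 on the right; symbols mark replicates A, B and C and black bars the group means. At *col2a1* the PBS libraries sit at 15300 to 134300, far above ZA D21 at 292 to 2546 and D14 at 834 to 1770, and ZA A is the highest ZA library at *col2a1*, *acan*, *col9a1* and *col9a2*.

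Fibroblast matrix genes were mostly a little higher in ZA D21. Of 47 tested, 34 had a log2 fold change above 0, 9 had an unadjusted p under 0.05 on the higher side and 1 on the lower side, and 11 had every ZA library above every D14 library (6.66% over all genes). The median was 0.22 in ZA minus D14, against 1.15 in PBS minus D14. Under total-count scaling the ZA minus D14 median was -0.02 and 22 genes were above 0, beside a median of -0.23 for all genes. The list median lay 0.21 above that of all genes under both scalings. The sign of the median thus depended on the scaling, but its distance from all genes did not. *tnxb*, tenascin-X, which spaces collagen fibrils, had 425, 490 and 638 normalized counts in ZA D21, 2926, 758 and 1675 in PBS D21, and 194, 191 and 211 in D14 (ZA minus D14 log2 fold change 1.42, SE 0.26; edgeR adjusted p = 0.10). *postn*, periostin, a matrix protein of healing wounds, had 678, 722 and 1158 in ZA D21, 1661, 1022 and 1625 in PBS D21, and 401, 466 and 466 in D14. At *tnxb* and *postn* the group means fell in the order PBS, ZA, D14, and ZA D21 did not overlap D14.

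Past the adjusted p but just under the fold change of a call were *ltbp4*, a matrix protein that holds latent TGF-beta, and *irx4*, an Iroquois transcription factor. Both were picked out after values had been seen. *ltbp4* had 731, 765 and 941 normalized counts in ZA D21, 2082, 628 and 507 in PBS D21, and 217, 226 and 199 in D14 (ZA minus D14 log2 fold change 1.97, SE 0.25; edgeR adjusted p = 0.027). *irx4* had 420, 594 and 531 in ZA D21, 147, 119 and 33.9 in PBS D21, and 153, 144 and 121 in D14 (log2 fold change 1.93, SE 0.26; edgeR adjusted p = 0.033). At *irx4* the PBS D21 and D14 libraries overlapped, while ZA D21 stood above both.

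Hox genes record position along the body axis, and most were lower in ZA D21. Of 37 tested, 35 had a log2 fold change below 0, 11 had an unadjusted p under 0.05 on the lower side and none on the higher side, and 23 had every ZA library under every D14 library (13.6% over all genes). The median was -0.71 with ZA A and -0.52 without, and no member was called with all libraries. *hoxb13*, a gene of the tail end of the axis, had 16.9, 23.0 and 17.7 normalized counts in ZA D21, 305, 181 and 335 in PBS D21, and 78.0, 57.0 and 75.4 in D14. ZA D21 was the lowest group and PBS D21 the highest, with no overlap (ZA minus D14 log2 fold change -1.81, SE 0.41; edgeR adjusted p = 0.17). *hoxd11*, a posterior gene of another cluster, had 94.1, 183 and 153 in ZA D21, 389, 700 and 605 in PBS D21, and 421, 366 and 540 in D14 (log2 fold change -1.58, edgeR adjusted p = 0.13). The median of the list in PBS minus D14 was -0.35.

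Of 64 replication and mitosis genes tested, 54 had a log2 fold change below 0 and 18 had every ZA library under every D14 library (13.6% over all genes). Only 5 had an unadjusted p under 0.05 on the lower side, a share near that of all genes (6.43%), and none on the higher side. The median was -0.38 with ZA A and -0.23 without. *top2a*, the topoisomerase of dividing cells, had 154, 268 and 355 normalized counts in ZA D21, 140, 573 and 784 in PBS D21, and 631, 507 and 586 in D14 (ZA minus D14 log2 fold change -1.11, edgeR adjusted p = 0.25). *mki67*, the usual proliferation marker, overlapped between ZA D21 (396, 1284 and 1095) and D14 (1367, 1229 and 1305), with a log2 fold change of -0.47 and a 95% confidence interval of -1.33 to 0.40. *pcna*, the replication clamp, was on the other side, with 813, 400 and 478 in ZA D21 and 389, 302 and 347 in D14. Of the 6 libraries, ZA A was the lowest at *mki67* and the highest at *pcna*.

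The 40 blastema mesenchyme factors had a median of -0.12, with 17 above 0 and 23 below. An unadjusted p under 0.05 was found for 1 on the higher side and 3 on the lower side, and none was called. Without ZA A, the member *hand2* was called lower (log2 fold change -3.66, edgeR adjusted p = 0.0050). Wnt signals drive outgrowth of appendages. The 58 Wnt genes had a median of 0.10, which was -0.12 under total-count scaling, beside -0.23 for all genes. On each side 3 had an unadjusted p under 0.05. *wnt5b*, a ligand of the outgrowing tip, had 101, 210 and 257 normalized counts in ZA D21, 85.7, 292 and 426 in PBS D21, and 567, 517 and 550 in D14 (ZA minus D14 log2 fold change -1.48, edgeR adjusted p = 0.17). ZA D21 and PBS D21 libraries all lay under the D14 libraries at *wnt5b*. *notum*, an enzyme that inactivates Wnt ligands, had 74.8, 26.4 and 35.4 in ZA D21 and 9.48, 6.50 and 13.2 in D14 (log2 fold change 2.25, edgeR adjusted p = 0.24). *ibsp*, bone sialoprotein of mineralizing matrix, had 2.41, 6.83 and 17.7 in ZA D21 and 67.8, 44.0 and 91.7 in D14, and was called lower without ZA A (log2 fold change -2.46, edgeR adjusted p = 0.033).

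No member of the other lists was called. Heat shock and stress genes had a median of 0.34 (20 of 22 above 0), ribosomal protein genes 0.40 (45 of 57), mitochondrial respiration genes 0.25 (23 of 29) and mineralization genes 0.25 (7 of 11). Under total-count scaling these medians were 0.09, 0.15, 0.02 and 0.01, beside -0.23 for all genes. Matrix proteases and inhibitors had a median of 0.08 (12 of 20 above 0), and the fgf, hedgehog and bmp genes 0.08 (30 of 54); both were below 0 under total-count scaling, at -0.17 and -0.16. Myofibroblast contractile genes had a median of -0.22, with 11 of 16 below 0. Among the markers of other cells, Schwann and myelin genes had a median of 0.34 (11 of 15 above 0), pigment cell genes -0.78 (11 of 13 below 0), endothelial genes -0.25 (16 of 22 below 0), skeletal muscle genes 0.18 (10 of 17 above 0) and erythrocyte genes -0.28 (6 of 8 below 0, with a median of -1.74 without ZA A). The skeletal muscle median was -0.06 under total-count scaling. The 17 genes that the study names and that were tested had a median of 0.23, which was -0.02 under total-count scaling. The study chose some of them on these libraries and others, such as *col1a1* and *spp1*, from earlier work.

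**Figure D4:**
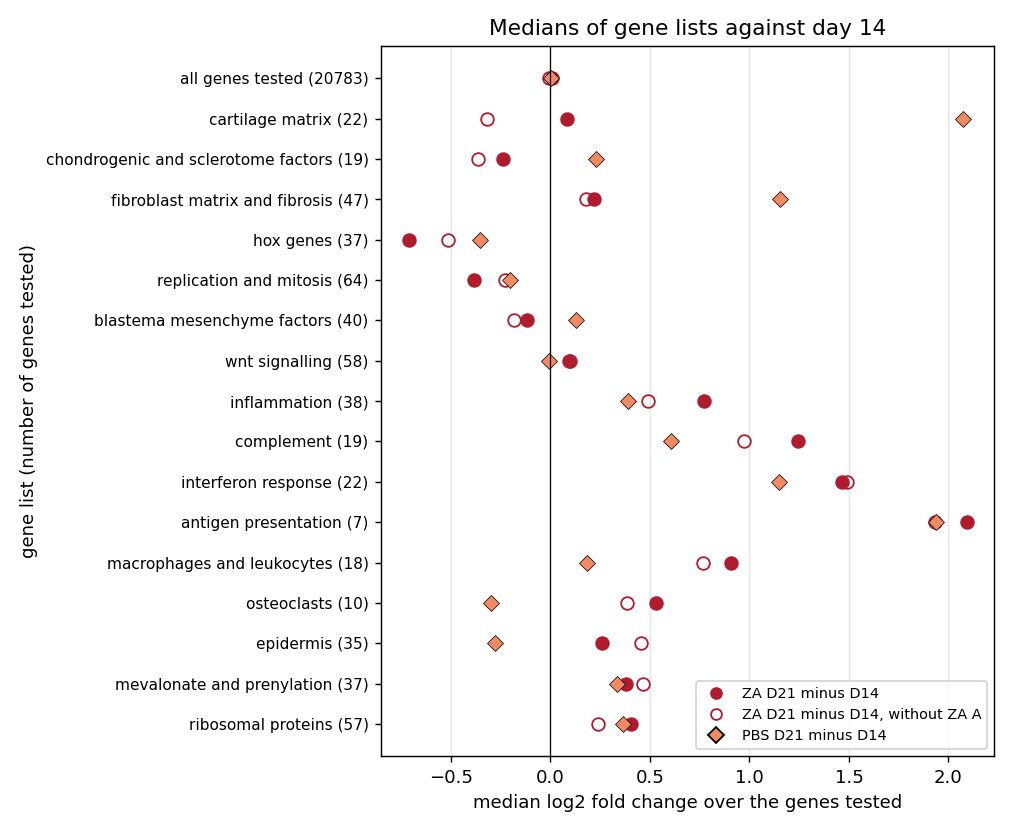
Median log2 fold change against D14 over the genes of each list, with the number of genes tested in brackets. Filled circles are ZA D21 minus D14, open circles the same without ZA A, and diamonds PBS D21 minus D14, which shares the D14 libraries; cartilage matrix genes have a median of 0.09 in ZA and 2.08 in PBS, and the lowest ZA median plotted is that of the Hox genes at -0.71.

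Most genes that fell were noncoding or carry only a locus name. Of the 32 called lower, 17 were snRNA genes, 9 lncRNA genes and 6 protein-coding genes, and 32 of all 37 called genes have a LOC name in place of a symbol, against 7712 of the 20783 genes tested. Spliceosomal snRNAs are short, abundant and present in many near-identical copies, so counts of single copies are uncertain. Of 47 snRNA genes tested, 24 had an unadjusted p under 0.05 on the lower side (6.43% over all genes). On the higher side there were 2 (5.38% over all genes). The median was -1.93 with ZA A and -2.95 without. In PBS minus D14 the median was -2.06 and 12 were called, against 42 of all 20783 genes. LOC134297194 on chromosome 2 had 24.1, 17.1 and 21.4 normalized counts in ZA D21, 15.1, 5.35 and 5.42 in PBS D21, and 890, 371 and 533 in D14 (ZA minus D14 log2 fold change -4.82, edgeR adjusted p = 0.0049). The 17 called snRNA genes fell into 4 sets, of 2, 6, 5 and 4 genes, with close D14 counts within each set. Their calls may therefore not be separate from one another. The set of 6 ran from 3.41 to 8.53 in ZA D21, 0.941 to 25.8 in PBS D21 and 162 to 240.1 in D14. Of the called snRNA genes, LOC134297230 and LOC134293371 kept their calls in 5 of 6 leave-one-out fits. LOC134298136, LOC134299066, LOC134293370 and LOC134293372 kept theirs in all 3 fits that tested them, each of which left out a ZA library. Their raw counts in ZA D21 were all under the minimum of the filter, so they passed it through D14 alone. The fits without a D14 library could not test them, so the dependence of these calls on single D14 libraries was not tested. In the called snRNA genes D14 stood apart from every other group, with gene means of 55.9 to 615 in D14, against at most 41.8 in ZA D21, 52.3 in PBS D21, 79.6 in D7 and 18.5 in D28. snRNA genes as a whole took 0.687%, 0.0666% and 0.0390% of counts in ZA D21 and 0.264%, 0.127% and 0.210% in D14.

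Among the 9 lncRNA genes called lower, LOC134295366 on chromosome 1 had 111, 164 and 176 normalized counts in ZA D21 and 962, 1177 and 1090 in D14 (log2 fold change -2.79). LOC134299010 on chromosome 4 had 29.0, 52.0 and 55.0 in ZA D21, 98.8, 44.9 and 42.0 in PBS D21, and 478, 420.0 and 601 in D14 (ZA minus D14 log2 fold change -3.39). Neither overlapped between ZA D21 and D14. LOC100562300, a protein-coding gene on chromosome 1, had raw counts of 0, 0 and 1 in ZA D21 and 99, 32 and 108 in D14, so that its fitted fold change is not given. The other protein-coding loci called lower were LOC103280272, LOC100567279 and LOC134294081.

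The number of genes without a count moved with these falls. There were 3462 to 4419 genes at 0 in the ZA libraries, 5998 to 6614 in PBS, 4423 to 6273 in D7, 3819 to 5927 in D28 and 1623 to 1642 in D14, the fewest in the series. At 410 genes every ZA library was at 0 and every D14 library above it, against 3 genes the other way round. Over 2758 lncRNA genes tested, 2047 had a log2 fold change below 0, beside 10308 of the 20783 genes tested. An unadjusted p under 0.05 on the lower side was found for 483 (6.43% over all genes). Their median was -0.49 in ZA minus D14 and -0.55 in PBS minus D14. A gene could pass the filter through the D14 libraries alone, so these counts are a description and not a test. lncRNA genes took 3.88%, 2.55% and 3.17% of counts in ZA D21 and 3.96% to 4.46% in D14. The part of the zero counts in the noncoding falls was not tested.

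Among annotated genes that fell, *ppm1h* on chromosome 5 encodes a protein phosphatase that in mammals acts on Rab proteins. It had 36.2, 71.7 and 69.0 normalized counts in ZA D21, 101, 102 and 224 in PBS D21, and 1468, 826 and 757 in D14. ZA D21 was far under D14 without overlap (log2 fold change -4.04, SE 0.39, 95% confidence interval -4.93 to -3.15; edgeR adjusted p = 0.0056). PBS D21 was under D14 too (log2 fold change -2.70, edgeR adjusted p = 0.028), and ZA minus PBS did not pass (-1.34, edgeR adjusted p = 0.34). Its D7, D14 and D28 means were 94.4, 1017 and 196, so that D14 was the high group. *ppm1h* kept its call in 3 of 6 leave-one-out fits, with adjusted p up to 0.063. *churc1*, on chromosome 1, encodes a zinc-binding factor known from early chick development. It had 16.9, 39.2 and 28.0 in ZA D21, 51.8, 24.6 and 104 in PBS D21, and 166, 178 and 165.5 in D14 (ZA minus D14 log2 fold change -2.52, SE 0.36; edgeR adjusted p = 0.042), and kept its call in 1 of 6 leave-one-out fits, with adjusted p up to 0.30. Its D7, D14 and D28 means were 37.5, 170 and 41.3.

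The place of ZA D21 on the course of regeneration was read from genes that separate D28 from D7, libraries that belong to neither side of the comparison. A total of 174 genes were called higher at D28 (late genes, 173 tested here) and 135 higher at D7 (early genes, 134 tested here). Of the late genes, 143 were above 0 in ZA minus D14 (82.7%, against 50.4% of all genes), with a median log2 fold change of 0.47 and none called. Of the early genes, 105 were below 0, with a median of -0.36 and none called. Without ZA A the medians were 0.48 for late and -0.26 for early genes. Under total-count scaling they were 0.21 and -0.58, beside -0.23 for all genes. Epidermal transcripts also differed along the time course. The summed epidermal genes were at 94220 to 152200 normalized counts in ZA D21 and 39360 to 95840 in PBS D21. Over the time course they ran from 19320 to 23390 in D7, from 73820 to 107600 in D14 and from 20050 to 113100 in D28. Of the stage genes, 4 late genes and no early gene are on that list (*esrp2*, *itga6*, *klf5* and *perp*). The list is a selection of epidermal markers, so this count is a minimum for the epidermal genes among the late genes. The part of epidermal RNA in the late set was not tested. The medians of PBS minus D14 were 0.69 for late and -0.32 for early genes.

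The mean log2(CPM + 1) of the late genes was 4.88, 5.01 and 4.89 in ZA D21 and 5.34, 5.29 and 5.0 in PBS D21. In the time course it was 2.65 to 2.92 at D7, 4.36 to 4.71 at D14 and 4.88 to 6.31 at D28. ZA D21 thus lay above every D14 library. The lowest D28 library, D28 A, stood apart from its own group (Spearman 0.744 and 0.748). With D28 A left out of the definition, 737 late genes were tested and their mean was 4.76, 5.295 and 5.19 in ZA D21 against 4.90, 4.93 and 4.52 in D14, so that ZA A fell within the range of D14. For the early genes of all libraries the mean was 4.55, 5.10 and 5.17 in ZA D21 and 4.48, 5.16 and 4.91 in PBS D21, with 6.74 to 7.14 at D7, 5.14 to 5.60 at D14 and 4.19 to 4.51 at D28. At the early genes ZA A and ZA B were under the lowest D14 library and ZA C was just above it.

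**Figure D5:**
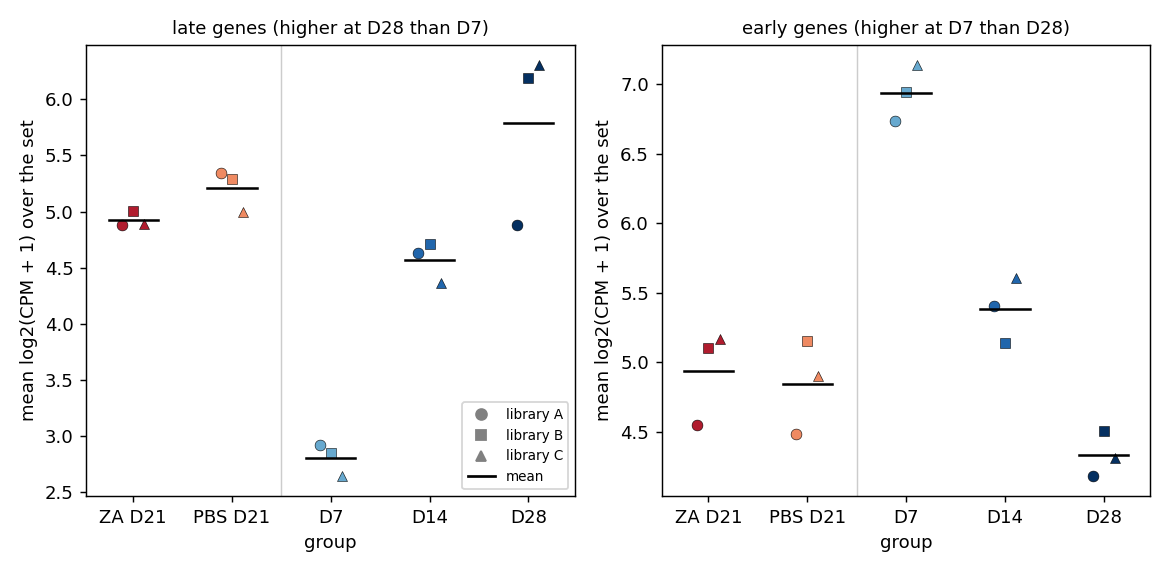
Mean log2(CPM + 1) over the late genes (left) and the early genes (right) in each library, with ZA D21 and PBS D21 left of the grey line and the time course D7, D14 and D28 right of it; symbols mark replicates A, B and C and black bars the group means. The ZA libraries sit at 4.88 to 5.01 for late genes, above the D14 libraries at 4.36 to 4.71 and below D28 B and D28 C.

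Single genes of these sets, picked out after values had been seen, went both ways. *wwc1*, a scaffold of the Hippo pathway and a late gene, had 929, 719 and 800 normalized counts in ZA D21 and 373, 385 and 274 in D14 (log2 fold change 1.30). *ntn1*, the guidance cue netrin 1 and an early gene, had 208, 246 and 188 in ZA D21 and 437, 380 and 486 in D14 (log2 fold change -0.98). Against the direction of their set, the late genes *hoxb13* and *col9a3* had log2 fold changes of -1.81 and -1.10.

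Whole profiles were described by Spearman correlation of log2(CPM + 1) between libraries over the 20783 genes, which share depth and gene composition within a library. ZA B had a median correlation of 0.931 with D14, 0.902 with PBS D21, 0.907 with D28 and 0.862 with D7. ZA C had 0.925 with D14, 0.897 with PBS D21, 0.917 with D28 and 0.863 with D7. ZA A had 0.840 with D14, 0.807 with PBS D21, 0.792 with D28 and 0.769 with D7, and its correlation with the other ZA libraries was 0.829 and 0.852. D14 was the closest group in each case by this median, although the single library closest to ZA A was PBS A (0.865, against 0.826 to 0.855 with the D14 libraries). Each PBS library was likewise closer to every D14 library (0.881 to 0.902) than to any D28 or D7 library. Nearness to D14 among the stages was thus not particular to ZA D21. D14 is also the tightest group, with 0.958 to 0.973 between its own libraries, against 0.829 to 0.958 within ZA D21 and 0.864 to 0.876 within PBS D21, and it had the fewest genes at 0.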

How the data were processed

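Cells positive for *col3a1* were sorted from whole tails, and their RNA was sequenced as stranded total RNA libraries. Alignment by the authors was done with STAR on the assembly rAnoCar3.1.pri, and 1 table of counts per gene was deposited for each library. The file names call these values normalized, but they are whole numbers whose totals differ between libraries, and they were treated as counts. The submitters' processing notes name SAMtools 1.17 and DESeq2 1.45.1. The counting tool and its strand setting are not given in the sources used here, so overlapping genes and near-identical copies are uncertain. Totals ran from 4237978 to 12444012 counts in ZA D21, 6310232 to 11329947 in PBS D21 and 11043456 to 12699682 in D14. The second column of each table was used.

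Groups follow the titles. Genes with 10 counts in 3 of the 6 libraries were tested with edgeR 4.0.16 (TMM, quasi-likelihood, no covariates, R 4.3.3) and p was adjusted by Benjamini-Hochberg across these genes. Genes were called at adjusted p below 0.05 if the log2 fold change exceeded 2 in size. Normalized counts are counts divided by the TMM effective library size of all 15 libraries and multiplied by the mean of those sizes. SE was derived from the log2 fold change and its F statistic, and 95% intervals use the total (residual plus prior) degrees of freedom of the test. PBS minus D14 and ZA minus PBS came from a fit of the 9 libraries. Late and early genes came from D28 against D7 with the same test. On simulated data with 198 changed genes at a log2 change of 4, the test recovered 184 and made 6 false calls among 20063 genes. Changes were placed only in better counted genes and no simulated library stood apart. The recovery of smaller changes, or beside a library such as ZA A, was not tested. Coordinates and kinds of gene are from RefSeq for the same build, matched by symbol for 26339 of 26523 genes. Alternatives were DESeq2 1.42.0, limma 3.58.1 (voom), other scalings, filters and fits, a replicate block, and leaving out each library. Figures were drawn with matplotlib 3.10.9.

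The comparison and the gene lists were chosen with earlier results of these data known; the complement, interferon and antigen presentation lists were added after values had been seen. Named genes include called genes with a symbol whose groups do not overlap and whose higher group averages at least 50 normalized counts. They also include genes the study names, and the members of each list that were called or had the smallest p. Genes outside these rules are given too, among them *acan*, *sox9*, *fdps*, *mki67*, *pcna* and *c1qb*, and not all are marked where they appear. Some genes are not reported here.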

Additional observations from a re-analysis of the deposited data

Results flagged for a closer look

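These genes had ZA minus PBS differences past the adjusted p and fold change of a call in the 9-library fit, so that their differences from D14, which share the D14 libraries, were not the same in the 2 injected groups. *col9a2* had a ZA minus PBS log2 fold change of -4.94 (edgeR adjusted p = 0.015), with -0.87 in ZA minus D14 and 4.07 in PBS minus D14. *col9a3* had -5.87 (edgeR adjusted p = 0.0069), with -1.10 in ZA minus D14 and 4.76 in PBS minus D14. *matn4* had -3.86 (edgeR adjusted p = 0.015), with -1.30 in ZA minus D14 and 2.57 in PBS minus D14. *sox5* had -3.01 (edgeR adjusted p = 0.0047), with -0.97 in ZA minus D14 and 2.04 in PBS minus D14. *hoxb13* had -3.91 (edgeR adjusted p = 0.0068), with -1.81 in ZA minus D14 and 2.09 in PBS minus D14.

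*myb*, a transcription factor of dividing progenitor cells, ran the other way. It had 74.8, 133 and 110.0 normalized counts in ZA D21, 0, 1.07 and 0 in PBS D21, and 24.1, 69.3 and 18.6 in D14. The PBS libraries were at or near 0, so the fitted ZA minus PBS log2 fold change of 7.70 (edgeR adjusted p = 0.015) depends on how counts near 0 are handled. ZA minus D14 was 1.55 (edgeR adjusted p = 0.32).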

How the results depend on the processing

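The counts of calls depended on the test and the libraries fitted, and the sign of the 37 called genes held in every leave-one-out fit that tested them. DESeq2 called 90 genes higher and 202 lower, and limma voom with library weights, added after seeing the data, 70 higher and 381 lower; the weight of ZA A was 0.244. Scaling by total counts gave 3 higher and 52 lower, with a median of -0.23 over all genes. Adjusted p alone gave 8 higher, the fit of all 15 libraries 1 higher and 8 lower, and the 9-library fit 1 higher and 12 lower. Leaving out 1 library gave 0 to 61 higher and 0 to 581 lower, fewest without D14 C and most without ZA A. Plain voom, DESeq2 size factors in edgeR, no filter and a mean count of at least 50 stayed within 1.5 times of the main counts. With D28 A left out of the set definition the medians were 0.39 for late and -0.30 for early genes.

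With the replicate letter as a block, 28 genes were called higher and 54 lower, all 37 main calls included. Deviations of same-lettered ZA and D14 libraries gave a correlation of 0.16 in A, -0.06 in B and -0.01 in C, and the letters come from different experiments, so the samples share only a letter.

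Depth was lowest in ZA A, where 3 counts correspond to 7.24 normalized counts, against 2.17 to 2.80 in the other 5 libraries. Genes under about that level could not be compared in ZA A.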

Other observations

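The genes below were picked out after values had been seen, and the first 4 were called without ZA A but not with all libraries. *cfap70*, a protein of motile cilia, had 60.3, 1947 and 1117 normalized counts in ZA D21, 2.82, 27.8 and 35.2 in PBS D21, and 67.1, 53.4 and 56.7 in D14. ZA B and ZA C were far above all other libraries and ZA A was at the D14 level (log2 fold change 4.15 with ZA A and 4.69 without; edgeR adjusted p = 0.17 and 2.8e-04). *acod1*, the enzyme that makes itaconate in activated macrophages of mammals, had 55.5, 154 and 243 in ZA D21, 71.6, 59.9 and 51.5 in PBS D21, and 19.0, 26.7 and 21.8 in D14 (log2 fold change 2.78 with ZA A and 3.15 without; edgeR adjusted p = 0.10 and 0.0024).

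On the lower side, *akap7*, an anchor of protein kinase A, had 200.3, 101 and 112 normalized counts in ZA D21, 165, 68.5 and 113 in PBS D21, and 1073, 550 and 860 in D14 (ZA minus D14 log2 fold change -2.55; edgeR adjusted p = 0.058 with ZA A and 0.0030 without). Both injected groups were under D14. *evx1*, a homeobox gene next to the posterior end of a Hox cluster, had 70.0, 21.3 and 11.2 in ZA D21, 64.0, 148 and 154 in PBS D21, and 143, 110 and 130 in D14 (log2 fold change -1.93 with ZA A and -2.96 without; edgeR adjusted p = 0.30 and 0.0058). All ZA libraries were under D14, and PBS D21 overlapped D14.

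*ngf*, nerve growth factor, was high in ZA A and PBS A. It had 2143, 203 and 123 normalized counts in ZA D21, 1207, 179 and 138 in PBS D21, and 109, 80.1 and 76.9 in D14. The ribosomal RNA gene LOC134295120 was high in the same libraries, at 14160, 205 and 92.3 in ZA D21, 10960, 185 and 63.7 in PBS D21, and 99.2, 39.7 and 38.9 in D14. ZA A and PBS A are also the libraries whose treatment entries differ from their titles. At other genes these libraries went with their titles, with *col2a1* at 2546 in ZA A and 134300 in PBS A, and *hoxb13* at 16.9 and 305. *matn4* was at 12.1 in ZA A and 202 in PBS A, and *myb* at 74.8 and 0. These genes are among those with large ZA minus PBS differences fitted under the same titles. With ZA A and PBS A left out, their ZA minus PBS log2 fold changes were -7.26 for *col2a1*, -3.78 for *hoxb13*, -3.88 for *matn4* and 7.32 for *myb*. The edgeR adjusted p values were 0.026, 0.034, 0.026 and 0.056 in that order. All of these genes were picked out after values had been seen. Over all genes tested, the library closest to ZA A was PBS A (Spearman 0.865). Which entry is right was not tested.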
